A study of Homo sapiens with 12 samples.

Results

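The genes described here are 45 genes of the spindle, the kinetochore and mitotic control, out of 58051 genes in a deposited table of gene counts. They were chosen by their GENCODE release 29 names, as mitotic genes other than cyclins and kinesins, and all 45 had enough counts to be tested, with no count of 0 in any library. The cells were NB-1, an established human neuroblastoma line carrying amplified MYCN and ALK. They were treated for 48 h with 0.5 µM BEZ-235, with 0.5 µM SAHA, with both drugs at these doses (BEZ-235 + SAHA), or with DMSO, the solvent, and each of the 4 groups has 3 biological replicates. BEZ-235 is an inhibitor of PI3K and mTOR, and SAHA (vorinostat) is an inhibitor of histone deacetylases. Polyadenylated RNA was sequenced from strand-specific libraries. The series addresses PI3K and HDAC inhibition in combination, around HBP1 as a repressor of MYCN activity. It holds 1 cell line, 1 dose of each drug and 1 time.

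Mitosis begins when CDK1 with its cyclins is switched on, and the CDC25 phosphatases remove the phosphates that hold CDK1 inactive. Chromosomes are then condensed and attached through their kinetochores, protein assemblies built on the CENP-A nucleosomes of the centromere, to spindle microtubules. Until every kinetochore is attached, checkpoint kinases and MAD2, BUBR1 and BUB3 hold back CDC20, the activator of the anaphase-promoting complex (APC/C). Once released, the APC/C lets separase open the cohesin rings, and the midzone proteins complete the division of the cell. Transcripts of many of these genes accumulate in G2 and M under B-MYB and FOXM1, which act with the MuvB complex, and they are silenced in resting cells by the DREAM complex, which binds the CHR element of their promoters. In bulk RNA, fewer cells in G2 and M and less RNA per cell cannot be told apart.

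Depth ran from 17662944 to 79543539 counts per library (median 20407979), and SAHA replicate 2 was the deepest. The 3 libraries with both drugs stand apart from the other 9 in how their counts follow the GC content of transcripts. In these 3 libraries, curves on GC content and length accounted for a share of 0.112 to 0.314 of the variance of log2 deviations from the mean of all libraries, and in the other 9 for 0.00906 to 0.118. These shares overlap, and the offsets of the curves do not. Transcripts under 40% GC had offsets of -0.51 to -0.29 on the log2 scale in the 3 libraries with both drugs and of -0.025 to 0.24 in the other 9. Results with the libraries of both drugs are therefore given with TMM scaling and, where they differ, after a correction for GC content and length. Of the markers of adrenergic neuroblastoma, the transcription factor gene HAND2 was at 351 to 676 CPM (counts scaled to the library total) over all libraries and GATA3 at 161 to 246 CPM. DBH, which makes noradrenaline, was at only 0.83 to 4.01 CPM, and TH, the first enzyme of that pathway, was at 40.9 to 61.7 CPM with BEZ-235, 29.1 to 44.7 CPM with SAHA, 29.02 to 49.8 CPM with both drugs and 109 to 153 CPM with DMSO. ISL1, another transcription factor gene of the list, was at 10.2 to 12.2 CPM with BEZ-235, 28.1 to 35.3 CPM with SAHA, 13.4 to 14.6 CPM with both drugs and 21.8 to 26.4 CPM with DMSO. The 6 fibroblast markers summed to 31.8 to 37.3 CPM with BEZ-235, 387 to 424 CPM with SAHA, 153 to 179 CPM with both drugs and 99.2 to 109 CPM with DMSO. LUM, encoding the matrix protein lumican, was at 9.60 to 12.5 CPM with BEZ-235, 313 to 335 CPM with SAHA, 82.3 to 118 CPM with both drugs and 57.2 to 62.5 CPM with DMSO. The 4 Schwann cell markers stayed at or under 7.15 CPM in sum, with SOX10 at 0 in every library. The 5 leukocyte markers stayed at or under 1.02 CPM in sum, and PTPRC, 1 of them, was at or under 0.103 CPM in every library. The part of other cell types in the results was not tested.

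The promoters are shown because the members share sequence elements there. The CHR element is known from promoters of mitotic genes, as given above, and the members were chosen as mitotic genes. The shares below therefore describe the list and are not a test. RefSeq promoter windows of GRCh38.p14, 250 bases before to 50 after a start, were found for 35 of the 45 genes. A CHR element (TTTGAA or TTCGAA, either strand) was present in 26 of these 35 genes (74.3%), against 19.5% of the 27305 genes with windows. A CCAAT box, the site of NF-Y (either strand), was present in 27 genes (77.1%, against 39.7% of all), and the CHR element and the CCAAT box together in 22 genes (62.9%, against 7.85%). Of E2F sites only the forms GCGGGAA and GCGCGAA were looked for, and they were in 7 genes (20%, against 10.2%). Other forms of the E2F site were not looked for. The forkhead core TAAACA was in 3 genes (8.57%, against 14.7%). Overlaps between different motifs were found in 2 places. Printed below are the 150 bases before the start of 5 genes, 5′ to 3′ on the strand of the gene, with CHR elements and CCAAT boxes in capitals. HMMR, MKI67 and PLK1 hold both kinds of element close together near the start, while CDC25A and CENPK, which were lower with SAHA, hold CCAAT boxes and no CHR element in this window.
HMMR, chr5:163460482-163460631, plus strand: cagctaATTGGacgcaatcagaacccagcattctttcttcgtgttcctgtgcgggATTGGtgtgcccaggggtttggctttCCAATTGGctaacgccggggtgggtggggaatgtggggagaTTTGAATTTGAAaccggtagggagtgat
MKI67, chr10:128126424-128126573, minus strand: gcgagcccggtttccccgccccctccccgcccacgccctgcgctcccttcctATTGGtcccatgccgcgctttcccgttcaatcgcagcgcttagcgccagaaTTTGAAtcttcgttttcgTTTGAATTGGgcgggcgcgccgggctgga
PLK1, chr16:23678739-23678888, plus strand: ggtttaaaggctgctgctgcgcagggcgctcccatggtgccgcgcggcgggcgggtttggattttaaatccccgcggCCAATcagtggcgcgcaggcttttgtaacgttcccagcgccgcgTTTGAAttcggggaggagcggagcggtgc
CDC25A, chr3:48188418-48188567, minus strand: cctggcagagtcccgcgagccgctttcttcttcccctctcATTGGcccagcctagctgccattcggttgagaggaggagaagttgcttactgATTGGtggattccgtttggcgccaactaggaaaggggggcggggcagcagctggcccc
CENPK, chr5:65563169-65563318, minus strand: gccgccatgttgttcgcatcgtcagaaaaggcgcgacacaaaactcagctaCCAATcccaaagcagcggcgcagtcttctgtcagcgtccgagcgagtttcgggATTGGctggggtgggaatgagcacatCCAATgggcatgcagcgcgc
In HMMR the CHR elements stand next to each other as a direct repeat, and in MKI67 the CHR element nearest the start shares a base with a CCAAT box. A CHR element was found in 15 of the 18 matched genes called higher with SAHA against DMSO, in 1 of the 4 called lower (ZWINT) and in 10 of the 13 not called. PLK1 is among those not called, and MYBL2, among those lower, holds neither element. No window was found for 2 of the 6 lowered genes and 4 of the 22 raised. A match describes letters in this window and is not a site shown to be bound.

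All 45 genes fell with BEZ-235 and all 45 fell with both drugs, while SAHA raised 22 of them and lowered 6. With BEZ-235 the log2 fold changes against DMSO ran from -4.34 to -0.31, with a median of -1.69, the largest adjusted p was 0.00528, and in every gene all 3 BEZ-235 libraries lay below all 3 DMSO libraries. Of the 17774 genes tested 25.4% were called lower in this comparison, and the median over all of them was 0.017. The share of all tested genes with such a separation by library was not counted. With both drugs the range was -3.75 to -0.26 and the median -2.02, in a comparison in which 31.2% of the tested genes were called lower and whose median over all genes was 0.034. With SAHA alone the range was -0.69 to 0.64 and the median 0.24. The 22 genes raised are 48.9% of the 45, against 22.2% of the tested genes, the 6 lowered are 13.3%, against 20.9%, and 17 were not called. In sum the 45 genes took 1981 to 2097 CPM with BEZ-235, 7109 to 7923 CPM with SAHA, 1717 to 1946 CPM with both drugs and 5669 to 5954 CPM with DMSO, with no overlap between the 4 groups. These sums are not corrected for GC content and length. The median change of the 45 genes with both drugs against BEZ-235 was -0.20, and -0.070 after that correction. MKI67, TOP2A and CENPF took the most with SAHA, at means of 1155, 928 and 919 CPM, against 739, 595 and 597 CPM with DMSO. The sum of the fibroblast markers was also highest in the SAHA libraries, as given above, with LUM its largest part. COL1A1 was highest with both drugs, at 15.7 to 23.9 CPM against 6.76 to 14.8 CPM with SAHA. PDGFRB was too, at 17.3 to 20.3 CPM against 12.4 to 16.7 CPM. With SAHA, COL1A2 overlapped BEZ-235 and THY1 overlapped DMSO by library. The part of these markers in the rise of the 45 genes was not tested. After the correction for GC content and length, SAHA had 22 of the 45 genes called higher (21.7% of the tested genes) and 6 lower (29.6%), BEZ-235 had 45 called lower (27.3%), and both drugs had 44 called lower (33.4%). The comparisons against DMSO share the DMSO libraries. The number called higher with SAHA was 16 when SAHA replicate 2 was left out.

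**Figure D1:**
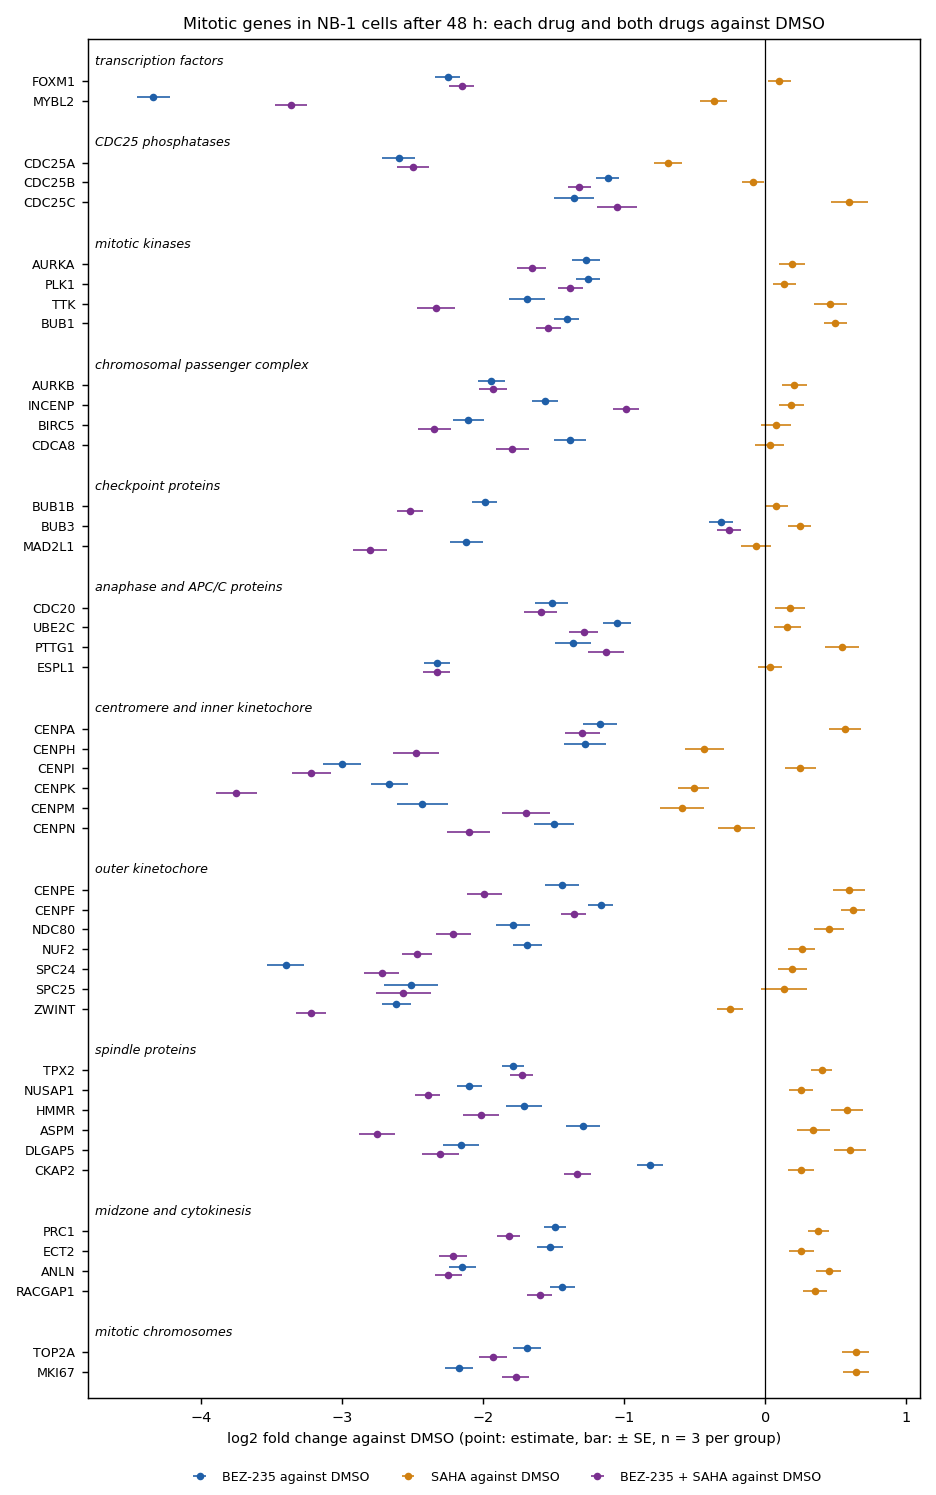
Log2 fold change against DMSO (x axis, point with ± SE, n = 3 per group) of each of the 45 genes (rows, by role) with BEZ-235, SAHA and both drugs. All points of BEZ-235 and of both drugs lie left of 0, from -4.34 for MYBL2 with BEZ-235 to -0.26 for BUB3 with both drugs, and those of SAHA lie between -0.69 and 0.64.

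The transcription factors of the mitotic genes, FOXM1 and MYBL2, both fell with BEZ-235, and MYBL2, which encodes B-MYB, fell the most of all 45 genes. MYBL2 was at 7.34, 6.42 and 5.38 CPM with BEZ-235, 88.3, 106 and 103 CPM with SAHA, 11.7, 13.2 and 12.5 CPM with both drugs and 131, 137 and 117 CPM with DMSO. The 4 groups did not overlap, in the order BEZ-235, both drugs, SAHA and DMSO from low to high. MYBL2 (ENSG00000101057, chromosome 20, 43667019 to 43716496, plus strand) was 20.2 times lower with BEZ-235, a log2 fold change of -4.34 ± 0.12 (adjusted p = 3.6e-13), and changed by -0.36 ± 0.096 (adjusted p = 0.00554) with SAHA and -3.36 ± 0.11 (adjusted p = 6.26e-13) with both drugs. FOXM1 (ENSG00000111206, chromosome 12, 2857681 to 2877155, minus strand) encodes a forkhead factor that binds with MuvB in late G2. FOXM1 was at 33.8, 28.1 and 33.8 CPM with BEZ-235, 147, 169 and 171 CPM with SAHA, 33.01, 33.7 and 35.8 CPM with both drugs and 156, 154 and 145 CPM with DMSO. The libraries with BEZ-235, alone or with SAHA, all lay below the DMSO libraries, and those with SAHA alone overlapped DMSO. Its changes were -2.25 ± 0.089 (adjusted p = 8.13e-12) with BEZ-235 and -2.15 ± 0.089 (adjusted p = 6.63e-12) with both drugs, and the value with SAHA was 0.10 ± 0.082 (adjusted p = 0.347), which is not a call. Against BEZ-235 alone, both drugs gave 0.97 ± 0.13 (adjusted p = 7.03e-06) for MYBL2, with all 3 libraries above those of BEZ-235. After the GC content and length correction, described above, this value was 0.43 ± 0.12 (adjusted p = 0.00561). FOXM1 was at 0.10 (adjusted p = 0.359) with both drugs against BEZ-235 alone, which is not a call. After the correction FOXM1 was called lower in this comparison.

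The CDC25 phosphatases, which activate CDK complexes, all fell with BEZ-235 (-2.60 to -1.12) and went different ways with SAHA. CDC25A was at 5.90, 6.63 and 5.16 CPM with BEZ-235, 19.3, 22.97 and 23.7 CPM with SAHA, 6.64, 6.01 and 6.24 CPM with both drugs and 35.9, 36.6 and 34.2 CPM with DMSO. CDC25A, which acts at the G1/S transition as well as in mitosis, had the lowest SAHA value of the 45 genes, -0.69 ± 0.10 (adjusted p = 4.67e-05), with all SAHA libraries below all DMSO libraries. With BEZ-235 it changed by -2.60 ± 0.12 (adjusted p = 2.73e-11). CDC25C was at 4.45, 4.39 and 5.25 CPM with BEZ-235, 15.4, 19.5 and 19.6 CPM with SAHA, 5.85, 5.07 and 6.51 CPM with both drugs and 13.2, 11.999 and 11.1 CPM with DMSO. CDC25C, which acts at the entry into mitosis, rose with SAHA by 0.60 ± 0.13 (adjusted p = 0.00128), again with no overlap, and with BEZ-235 it changed by -1.36 ± 0.14 (adjusted p = 8.7e-07). CDC25B was at 77.99, 67.7 and 69.3 CPM with BEZ-235, 137, 149 and 154 CPM with SAHA, 59.9, 61.2 and 65.4 CPM with both drugs and 158, 164 and 144 CPM with DMSO. CDC25B, which starts the activation of CDK1 at the centrosome, was the least changed of the 3 with BEZ-235, -1.12 ± 0.081 (adjusted p = 1.07e-08), and its SAHA libraries overlapped DMSO (-0.084 ± 0.079, adjusted p = 0.414).

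The mitotic kinases AURKA, PLK1, TTK and BUB1 fell with BEZ-235 by similar amounts (-1.69 to -1.26), and TTK and BUB1 rose with SAHA. TTK was at 16.03, 20.9 and 19.9 CPM with BEZ-235, 74.99, 83.2 and 93.9 CPM with SAHA, 14.99, 10.9 and 10.5 CPM with both drugs and 61.6, 61.1 and 60.4 CPM with DMSO. TTK, known as MPS1, starts the checkpoint signal at unattached kinetochores. It changed by -1.69 ± 0.13 (adjusted p = 1.67e-08) with BEZ-235, 0.46 ± 0.12 (adjusted p = 0.00447) with SAHA and -2.33 ± 0.13 (adjusted p = 2.66e-10) with both drugs, and no group overlapped DMSO. PLK1 was at 20.2, 18.9 and 18.2 CPM with BEZ-235, 49.6, 50.7 and 49.8 CPM with SAHA, 16.7, 16.9 and 18.8 CPM with both drugs and 49.5, 43.9 and 43.4 CPM with DMSO. PLK1, a kinase needed for centrosome maturation and kinetochore attachment, changed by -1.26 ± 0.087 (adjusted p = 5.84e-09) with BEZ-235. With SAHA it was at 0.14 ± 0.082 (adjusted p = 0.198), not a call, although all 3 SAHA libraries lay just above the DMSO libraries. BUB1, the kinase that marks centromeric chromatin for the passenger complex, was at 0.50 ± 0.084 (adjusted p = 0.000161) with SAHA. AURKA, the kinase of the spindle poles, was at 0.19 ± 0.093 (adjusted p = 0.11), which did not pass.

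The chromosomal passenger complex, in which AURKB is the kinase and INCENP, BIRC5 (survivin) and CDCA8 (borealin) place and activate it, fell as a whole with BEZ-235 (-2.10 to -1.38). None of its 4 genes passed the test with SAHA (0.033 to 0.21). INCENP was at 19.2, 18.7 and 17.8 CPM with BEZ-235, 65.8, 63.2 and 57.7 CPM with SAHA, 24.6, 28.02 and 30.05 CPM with both drugs and 57.1, 50.7 and 56.5 CPM with DMSO. INCENP, the scaffold, changed by -1.56 ± 0.094 (adjusted p = 1.06e-09) with BEZ-235 and -0.99 ± 0.091 (adjusted p = 8.53e-08) with both drugs. After the GC content and length correction its value with both drugs was -1.38 ± 0.071 (adjusted p = 1.52e-11). BIRC5 was at 26.8, 24.9 and 25.03 CPM with BEZ-235, 99.9, 123 and 124 CPM with SAHA, 22.6, 18.7 and 23.5 CPM with both drugs and 114, 120.1 and 95.8 CPM with DMSO. BIRC5 was at -2.10 ± 0.11 (adjusted p = 2.28e-10) with BEZ-235 and 0.076 ± 0.10 (adjusted p = 0.589) with SAHA, whose libraries overlapped those of DMSO. CDCA8 was at 12.5, 10.97 and 10.2 CPM with BEZ-235, 26.4, 31.3 and 31.8 CPM with SAHA, 7.92, 8.22 and 9.15 CPM with both drugs and 31.4, 29.4 and 27.04 CPM with DMSO. CDCA8 changed by -1.38 ± 0.11 (adjusted p = 3.42e-08) with BEZ-235 and was near 0 with SAHA, 0.033 ± 0.10 (adjusted p = 0.821). After the GC content and length correction AURKB and INCENP were called higher with SAHA, at 0.20 ± 0.065 (adjusted p = 0.0164) and 0.24 ± 0.066 (adjusted p = 0.00565).

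Among the checkpoint proteins BUB1B, MAD2L1 and BUB3 fell with BEZ-235, and BUB3 fell the least of all 45 genes. BUB1B was at 35.3, 33.4 and 37.7 CPM with BEZ-235, 144, 152 and 151 CPM with SAHA, 28.7, 22.5 and 22.8 CPM with both drugs and 138, 142 and 142 CPM with DMSO. BUB1B encodes BUBR1, a subunit of the complex that holds CDC20, and changed by -1.99 ± 0.088 (adjusted p = 2.7e-11) with BEZ-235. Its SAHA value was 0.079 ± 0.083 (adjusted p = 0.47). BUB3 was at 306, 343 and 326 CPM with BEZ-235, 426, 489.5 and 517 CPM with SAHA, 359, 324 and 329 CPM with both drugs and 397, 419.9 and 393 CPM with DMSO. BUB3, the partner of BUB1 and BUBR1, lay below the DMSO libraries in all BEZ-235 libraries and in all libraries with both drugs. It changed by -0.31 ± 0.084 (adjusted p = 0.00528) with BEZ-235 and by -0.26 ± 0.084 (adjusted p = 0.0125) with both drugs, and after the GC content and length correction the value with both drugs was -0.033 ± 0.081 (adjusted p = 0.735), not a call. With SAHA it was at 0.24 ± 0.083 (adjusted p = 0.0262), a call lost after the correction (0.074 ± 0.081, adjusted p = 0.475) and on leaving out DMSO replicate 1, DMSO replicate 3, SAHA replicate 2 or SAHA replicate 3 (largest adjusted p = 0.128). MAD2L1, encoding MAD2, was at -2.12 ± 0.12 (adjusted p = 2.91e-10) with BEZ-235 and -0.067 ± 0.11 (adjusted p = 0.643) with SAHA.

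The anaphase genes CDC20, UBE2C, PTTG1 and ESPL1 fell with BEZ-235 (-2.33 to -1.05), and PTTG1 was the only one of these 4 called with SAHA. UBE2C was at 36.4, 38.6 and 37.8 CPM with BEZ-235, 74.5, 88.6 and 97.2 CPM with SAHA, 31.04, 30.7 and 33.96 CPM with both drugs and 81.1, 83.4 and 69.5 CPM with DMSO. UBE2C, the ubiquitin-conjugating enzyme that works with the APC/C, was 2.07 times lower with BEZ-235, -1.05 ± 0.10 (adjusted p = 2.63e-07). ESPL1 was at 15.9, 14.9 and 12.9 CPM with BEZ-235, 77.1, 76.03 and 70.5 CPM with SAHA, 13.3, 15.1 and 15.2 CPM with both drugs and 75.5, 68.6 and 74.8 CPM with DMSO. ESPL1 encodes separase, the protease that cuts cohesin, and was 5.02 times lower with BEZ-235, -2.33 ± 0.094 (adjusted p = 9.92e-12). With TMM scaling its value with both drugs was the same to the second decimal, -2.33 ± 0.094 (adjusted p = 5.61e-12), while after the GC content and length correction both drugs were called below BEZ-235, at -0.39 ± 0.074 (adjusted p = 0.000241). PTTG1, encoding the separase inhibitor securin, rose with SAHA by 0.54 ± 0.12 (adjusted p = 0.00191), while UBE2C, ESPL1 and CDC20 were at 0.16 ± 0.096, 0.031 ± 0.085 and 0.17 ± 0.11.

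The genes of the centromere and inner kinetochore were called in both directions with SAHA (-0.59 to 0.57): CENPA rose, CENPH, CENPK and CENPM fell, and CENPI and CENPN were not called. All 6 fell with BEZ-235 (-3.00 to -1.17). CENPI was at 2.95, 3.16 and 3.91 CPM with BEZ-235, 30.4, 33.2 and 32.3 CPM with SAHA, 3.35, 2.76 and 2.59 CPM with both drugs and 30.2, 24.3 and 26.4 CPM with DMSO. CENPI, a subunit of the CENP-H/I/K complex, was 8.001 times lower with BEZ-235, -3.00 ± 0.13 (adjusted p = 2.73e-11), and at 0.25 ± 0.11 (adjusted p = 0.0759) with SAHA, just short of the threshold with all 3 libraries above DMSO. CENPH was at 8.31, 9.84 and 10.4 CPM with BEZ-235, 13.1, 17.8 and 20.3 CPM with SAHA, 3.40, 4.36 and 4.64 CPM with both drugs and 22.7, 24.6 and 22.1 CPM with DMSO. CENPH, of the same complex, changed by -1.28 ± 0.15 (adjusted p = 2.9e-06) with BEZ-235 and -2.48 ± 0.16 (adjusted p = 1.64e-09) with both drugs, and by -0.43 ± 0.14 (adjusted p = 0.0211) with SAHA. The SAHA call of CENPH was lost without DMSO replicate 1, DMSO replicate 2 or SAHA replicate 1 (largest adjusted p = 0.102). CENPM was at 2.52, 2.83 and 2.02 CPM with BEZ-235, 8.95, 8.15 and 9.27 CPM with SAHA, 4.41, 3.48 and 4.28 CPM with both drugs and 11.96, 16.4 and 11.2 CPM with DMSO. CENPM, a small subunit of the inner kinetochore, changed by -2.43 ± 0.18 (adjusted p = 1.36e-08) with BEZ-235 and -0.59 ± 0.16 (adjusted p = 0.00569) with SAHA, and its libraries with both drugs lay between those of BEZ-235 and SAHA without overlap. CENPK, of the same complex as CENPH and CENPI, was at -3.75 ± 0.15 (adjusted p = 3.42e-12) with both drugs, the lowest of the 45 genes with TMM scaling. After the GC content and length correction CENPK was at -3.00 ± 0.12 (adjusted p = 4.51e-13), and MYBL2 was the lowest at -3.76 ± 0.094 (adjusted p = 3.11e-15). With SAHA CENPK changed by -0.51 ± 0.11 (adjusted p = 0.00168). CENPA, the histone H3 variant of the centromere, rose with SAHA by 0.57 ± 0.11 (adjusted p = 0.000658).

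In the outer kinetochore, which binds microtubules, all 7 genes fell with BEZ-235 (-3.40 to -1.17). With SAHA, CENPE, CENPF, NDC80 and NUF2 rose, ZWINT fell, and SPC24 and SPC25 were not called. SPC24 was at 3.38, 3.05 and 2.92 CPM with BEZ-235, 33.3, 39.3 and 39.7 CPM with SAHA, 5.79, 4.63 and 4.55 CPM with both drugs and 34.3, 34.8 and 29.5 CPM with DMSO. SPC24, a subunit of the NDC80 complex that faces the centromere, was 10.6 times lower with BEZ-235, -3.40 ± 0.13 (adjusted p = 6.7e-12), the second largest fall of the 45 genes, and was less far below DMSO with both drugs, -2.72 ± 0.12 (adjusted p = 2.03e-11). NUF2 was at 37.7, 40.2 and 37.9 CPM with BEZ-235, 134, 152 and 159.7 CPM with SAHA, 26.4, 21.9 and 19.2 CPM with both drugs and 124, 132 and 116 CPM with DMSO. NUF2, which dimerises with NDC80, ran the other way between these groups, at -1.69 ± 0.10 (adjusted p = 1.18e-09) with BEZ-235 and -2.47 ± 0.11 (adjusted p = 1.15e-11) with both drugs. Its rise with SAHA, 0.26 ± 0.097 (adjusted p = 0.0399), was lost without DMSO replicate 1, DMSO replicate 3, BEZ-235 replicate 2, SAHA replicate 2 or SAHA replicate 3 (largest adjusted p = 0.151). CENPF was at 267, 248 and 284 CPM with BEZ-235, 901, 998 and 857 CPM with SAHA, 253, 224 and 222 CPM with both drugs and 616, 558 and 618 CPM with DMSO. CENPF, a large protein of the kinetochore corona, rose with SAHA by 0.62 ± 0.086 (adjusted p = 2.39e-05) and had the smallest fall of the 7 with BEZ-235, -1.17 ± 0.087 (adjusted p = 1.48e-08). ZWINT, which links KNL1 to the corona, changed by -0.25 ± 0.09 (adjusted p = 0.0335) with SAHA, a call lost without DMSO replicate 1, DMSO replicate 2, DMSO replicate 3 or SAHA replicate 1 (largest adjusted p = 0.159).

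The 6 spindle proteins all rose with SAHA (0.25 to 0.60) and all fell with BEZ-235 (-2.16 to -0.82). ASPM was at 129, 150.3 and 169 CPM with BEZ-235, 435, 479.7 and 472 CPM with SAHA, 62.5, 52.8 and 47.6 CPM with both drugs and 381, 311 and 404 CPM with DMSO. ASPM, which gathers microtubule minus ends at the spindle pole, changed by -1.29 ± 0.12 (adjusted p = 2.18e-07) with BEZ-235 and by -2.75 ± 0.13 (adjusted p = 2.8e-11) with both drugs, and the 3 libraries with both drugs lay far below those with BEZ-235. DLGAP5 was at 14.2, 15.1 and 15.2 CPM with BEZ-235, 90.5, 106 and 105 CPM with SAHA, 17.1, 12.7 and 10.7 CPM with both drugs and 68.8, 67.7 and 62.3 CPM with DMSO. DLGAP5 (HURP), which stabilises kinetochore fibres, rose with SAHA by 0.60 ± 0.12 (adjusted p = 0.000495) and changed by -2.16 ± 0.13 (adjusted p = 8.93e-10) with BEZ-235. CKAP2 was at 76.97, 80.2 and 79.6 CPM with BEZ-235, 155, 172 and 171 CPM with SAHA, 65.1, 52.8 and 48.3 CPM with both drugs and 141, 133 and 143 CPM with DMSO. CKAP2, a microtubule nucleation factor, had the second smallest fall of the 45 genes with BEZ-235, -0.82 ± 0.092 (adjusted p = 1.83e-06). HMMR, whose promoter is shown above, was at 0.58 ± 0.11 (adjusted p = 0.000564) with SAHA and TPX2, the activator of Aurora A, at 0.40 ± 0.077 (adjusted p = 0.000519). The SAHA values of ASPM (0.34 ± 0.12, adjusted p = 0.0264), CKAP2 (0.25 ± 0.09, adjusted p = 0.0314) and NUSAP1 (0.26 ± 0.084, adjusted p = 0.0211) were calls that single libraries ended. ASPM lost its call without DMSO replicate 2, SAHA replicate 2 or SAHA replicate 3, CKAP2 without DMSO replicate 1, DMSO replicate 2, SAHA replicate 2 or SAHA replicate 3 and NUSAP1 without DMSO replicate 3, SAHA replicate 2 or SAHA replicate 3. After the GC content and length correction 5 of the 6 were called higher, and ASPM was at 0.17 ± 0.071 (adjusted p = 0.0502).

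All 4 genes of the midzone and cytokinesis rose with SAHA (0.26 to 0.45) and fell with BEZ-235 (-2.15 to -1.44). ANLN was at 19.8, 20.5 and 22.1 CPM with BEZ-235, 117, 135 and 126 CPM with SAHA, 22.1, 17.4 and 18.8 CPM with both drugs and 93.7, 86.5 and 97.1 CPM with DMSO. ANLN encodes anillin, which ties actin and myosin into the contractile ring, and it changed by -2.15 ± 0.096 (adjusted p = 2.7e-11) with BEZ-235 and 0.45 ± 0.087 (adjusted p = 0.000581) with SAHA, with no overlap with DMSO in either. ECT2 was at 33.5, 33.5 and 34.3 CPM with BEZ-235, 102, 121 and 125 CPM with SAHA, 22.9, 21.02 and 19.2 CPM with both drugs and 96.3, 90.9 and 105 CPM with DMSO. ECT2, the exchange factor that activates RhoA at the cell equator, fell with BEZ-235, at -1.53 ± 0.093 (adjusted p = 1.2e-09), and lay lower still with both drugs, -2.21 ± 0.097 (adjusted p = 1.21e-11). Its SAHA value, 0.26 ± 0.088 (adjusted p = 0.0269), overlapped DMSO by library and was not called without DMSO replicate 1, DMSO replicate 2, SAHA replicate 2 or SAHA replicate 3 (largest adjusted p = 0.121). PRC1, which bundles the midzone microtubules, was at 0.38 ± 0.074 (adjusted p = 0.000642) with SAHA, and RACGAP1, a subunit of centralspindlin, at 0.35 ± 0.086 (adjusted p = 0.00342).

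TOP2A and MKI67, whose proteins act on mitotic chromosomes, had the highest SAHA values of the 45 genes with TMM scaling, while after the GC content and length correction DLGAP5 (0.56 ± 0.08, adjusted p = 1.75e-05) and HMMR (0.55 ± 0.081, adjusted p = 2.02e-05) were highest. TOP2A was at 175, 182 and 196 CPM with BEZ-235, 875, 970.2 and 939.8 CPM with SAHA, 183, 149 and 136 CPM with both drugs and 611, 573 and 601 CPM with DMSO. TOP2A, the topoisomerase that separates sister DNA, rose with SAHA by 0.64 ± 0.096 (adjusted p = 5.12e-05) and changed by -1.69 ± 0.098 (adjusted p = 6.93e-10) with BEZ-235. MKI67 was at 159, 160.3 and 173 CPM with BEZ-235, 1162, 1236 and 1066 CPM with SAHA, 222, 207 and 221 CPM with both drugs and 789, 632 and 796 CPM with DMSO. MKI67 encodes Ki-67, the coat of mitotic chromosomes and a common marker of cycling cells, and changed by 0.64 ± 0.092 (adjusted p = 3.5e-05) with SAHA and -2.17 ± 0.097 (adjusted p = 2.7e-11) with BEZ-235. Neither gene overlapped DMSO in any group, and MKI67 was higher with both drugs than with BEZ-235 in all 3 libraries. Per kilobase of the longest transcript, TOP2A had the highest level with DMSO, 103 ± 3.45 CPM per kb (SD, n = 3), followed by UBE2C at 85.3 ± 8.16 and NUSAP1 at 78.8 ± 3.26. UBE2C and NUSAP1 lay within 1 SD of each other. The lowest were CENPI at 8.27 ± 0.917, CDC25C at 5.65 ± 0.490 and CENPN at 4.99 ± 0.167 CPM per kb.

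**Figure D2:**
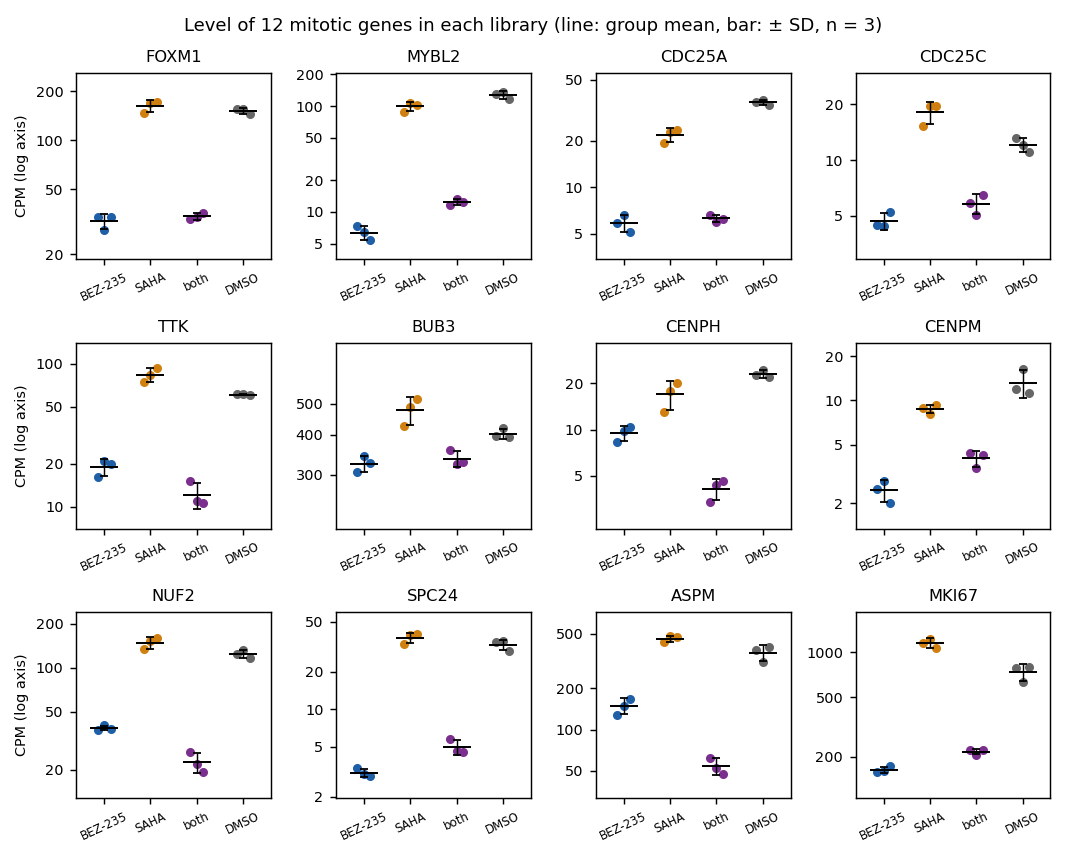
Level in CPM (y axis, log scale) of 12 of the genes in every library with BEZ-235, SAHA, both drugs and DMSO, with the group mean as a line and the SD as a bar (n = 3). For MYBL2 the BEZ-235 libraries lie at 5.38 to 7.34 CPM and the DMSO libraries at 117 to 137 CPM, and for BUB3 all libraries lie between 306 and 517 CPM.

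Set directly against each other, BEZ-235 was below SAHA in all 45 genes (-3.97 to -0.56, median -1.95), in a comparison in which 30% of the tested genes were called lower. The largest differences were those of MYBL2, -3.97 ± 0.12 (adjusted p = 4.02e-13), SPC24, -3.59 ± 0.13 (adjusted p = 2.44e-12), and CENPI, -3.25 ± 0.13 (adjusted p = 7.86e-12). By role, the kinases differed by -2.15 to -1.39, the spindle proteins by -2.76 to -1.07 and the outer kinetochore genes by -3.59 to -1.79. The smallest differences were those of BUB3, -0.56 ± 0.084 (adjusted p = 2.63e-05), and CENPH, -0.85 ± 0.15 (adjusted p = 0.000122), which SAHA itself had lowered. In all 45 genes the 3 BEZ-235 libraries lay below the 3 SAHA libraries, a separation not counted over all tested genes. After the correction for GC content and length all 45 were still called lower, against 29.4% of the tested genes.

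Adding SAHA to BEZ-235 lowered 19 of the 45 genes (42.2%, against 28.5% of the tested genes) and raised 5 (11.1%, against 29.5%). The 5 raised were MYBL2 (0.97 ± 0.13), CENPM (0.73 ± 0.19), SPC24 (0.68 ± 0.15), INCENP (0.57 ± 0.095) and MKI67 (0.40 ± 0.093). The largest falls were those of ASPM (-1.46 ± 0.12, adjusted p = 7.98e-08), CENPH (-1.20 ± 0.17, adjusted p = 1.69e-05) and CENPK (-1.08 ± 0.16, adjusted p = 3.19e-05). GC content of the members runs from 32.9% (CENPK) to 61.4% (CENPM), and their values in this comparison rose with it, with a Pearson r of 0.649 over the 45 genes, which fell to -0.11 after the correction. Of the 22 genes under 45% GC, 13 were called lower and 0 higher. The share called among all tested genes under 45% GC was not counted, so this count does not set the members apart. With the correction 21 genes were called lower (30.6% of the tested genes) and 8 higher (25.7%), of which 14 and 3 were the ones called without it. MYBL2 (0.43 ± 0.12, adjusted p = 0.00561), SPC24 (0.45 ± 0.14, adjusted p = 0.012) and MKI67 (0.34 ± 0.066, adjusted p = 0.000305) stayed called higher and ASPM (-0.93 ± 0.075, adjusted p = 1.5e-08), CENPH (-0.96 ± 0.16, adjusted p = 5.19e-05) and CENPK (-0.39 ± 0.14, adjusted p = 0.0251) lower. INCENP and CENPM lost their calls, and TOP2A, at -0.24 ± 0.097 (adjusted p = 0.0425) without the correction, was at 0.18 ± 0.068 (adjusted p = 0.0343) with it, in the other direction. Single libraries ended the uncorrected calls of TOP2A (without BEZ-235 replicate 2, BEZ-235 replicate 3, SAHA replicate 2, BEZ-235 + SAHA replicate 2 or BEZ-235 + SAHA replicate 3), CDC25B (without BEZ-235 replicate 1, SAHA replicate 2, BEZ-235 + SAHA replicate 1 or BEZ-235 + SAHA replicate 2) and NDC80 (without BEZ-235 + SAHA replicate 2). Against SAHA alone, both drugs were below in all 45 genes (-3.47 to -0.50, median -2.25), where 28.9% of the tested genes were called lower, and 44 remained so after the correction (24.3% of the tested genes), with BUB3 the exception.

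**Figure D3:**
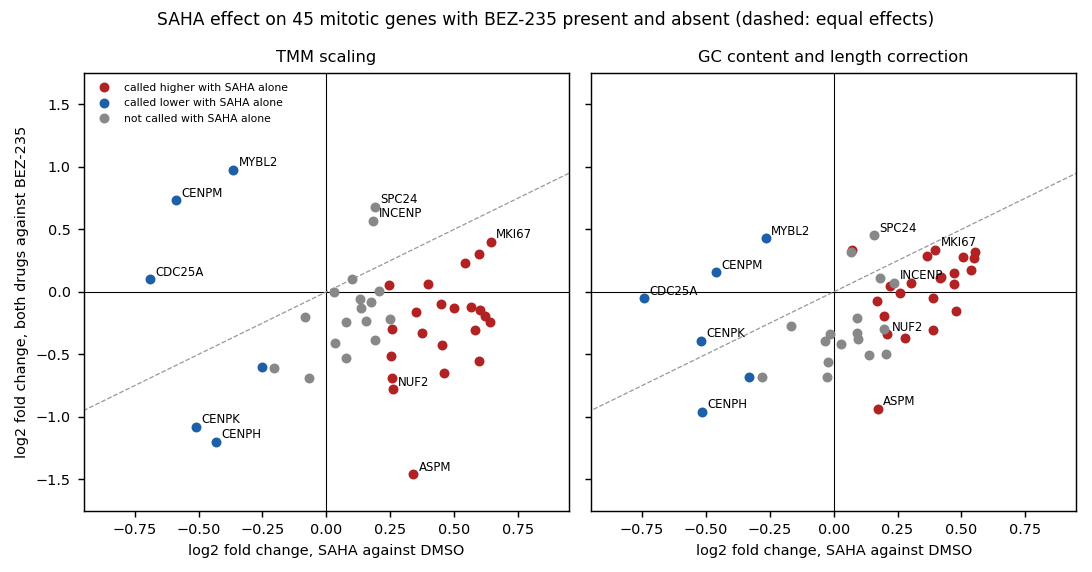
Log2 fold change with SAHA against DMSO (x axis) and with both drugs against BEZ-235 (y axis) for the 45 genes, with TMM scaling (left) and after correction for GC content and length (right), coloured in both panels by the call of SAHA against DMSO with TMM scaling. On the left the 22 genes raised by SAHA alone (red) have a median of -0.22 on the y axis, and on the right 0.068.

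The SAHA effect with BEZ-235 present and the SAHA effect without it share no library. The 22 genes raised by SAHA alone had a median of -0.22 when BEZ-235 was present, where 1 of them (MKI67) was called higher and 10 lower, against 0.46 without BEZ-235, a value that the choice of these genes fixes. The 17 genes not called with SAHA alone had a median of -0.20 with BEZ-235 present and the 6 lowered genes one of -0.25. After the correction these medians were 0.068 for the 22 raised genes, -0.33 for the 17 not called and -0.22 for the 6 lowered. The raised genes then had 6 called higher and 5 lower, the not called 1 and 13, and the lowered 1 and 3. Of all tested genes, 29.5% were called higher and 28.5% lower in this comparison without the correction. With it the shares were 25.7% and 30.6%, and the corrected counts of the 22 raised genes are near them. Over the 45 genes the Pearson r of the pair of SAHA effects was 0.024, and 0.421 after the correction, against 0.525 over all tested genes without it. The pair of BEZ-235 effects, without and with SAHA, had an r of 0.628, and of 0.848 after the correction, against 0.503 over all tested genes without it. Genes are not independent of each other, so these are descriptions.

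The interaction term tests that difference gene by gene. It is the log2 change that SAHA made on top of BEZ-235, less the change it made in cells without BEZ-235, and it was called in 30 of the 45 genes, against 38.4% of the tested genes. It was below 0 in 25 genes (55.6%, against 19.6% of the tested genes) and above 0 in 5 (11.1%, against 18.9%), with a median of -0.47 against -0.036 over all genes. ASPM had the lowest value, -1.80 ± 0.17 (adjusted p = 1.07e-05), followed by CENPE (-1.15 ± 0.17, adjusted p = 0.000206) and TTK (-1.11 ± 0.18, adjusted p = 0.000353). All 6 spindle proteins (-1.80 to -0.34) and all 4 midzone and cytokinesis genes (-0.94 to -0.51) were called below 0. The 5 above 0 were MYBL2 (1.34 ± 0.16, adjusted p = 4.85e-05), CENPM (1.32 ± 0.25, adjusted p = 0.000879), CDC25A (0.79 ± 0.16, adjusted p = 0.00156), SPC24 (0.49 ± 0.18, adjusted p = 0.044) and INCENP (0.39 ± 0.13, adjusted p = 0.0266). With the GC content and length correction 21 genes were called below 0 (9.35% of the tested genes) and 3 above 0 (10.3%), and 15 of the 21 and all 3 were among those called without it. ASPM stayed at -1.11 ± 0.10 (adjusted p = 3.75e-06), NUF2 at -0.55 ± 0.096 (adjusted p = 0.000889), PRC1 at -0.65 ± 0.091 (adjusted p = 0.000134), MYBL2 at 0.70 ± 0.14 (adjusted p = 0.00282), CDC25A at 0.69 ± 0.16 (adjusted p = 0.00505) and CENPM at 0.62 ± 0.21 (adjusted p = 0.0477). Only ASPM of the spindle proteins kept its call, while PLK1, AURKB, BIRC5, CDC20, CDC25B and ESPL1 gained one. SPC24 lost its call without DMSO replicate 1, DMSO replicate 2, BEZ-235 replicate 2, BEZ-235 replicate 3, SAHA replicate 1, SAHA replicate 2, BEZ-235 + SAHA replicate 1 or BEZ-235 + SAHA replicate 2 (largest adjusted p = 0.124), and INCENP without DMSO replicate 1, DMSO replicate 3, BEZ-235 replicate 2, BEZ-235 replicate 3, SAHA replicate 3, BEZ-235 + SAHA replicate 2 or BEZ-235 + SAHA replicate 3 (largest adjusted p = 0.0812). The number above 0 was 3 rather than 5 without DMSO replicate 1, BEZ-235 replicate 2, BEZ-235 replicate 3 or BEZ-235 + SAHA replicate 2.

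**Figure D4:**
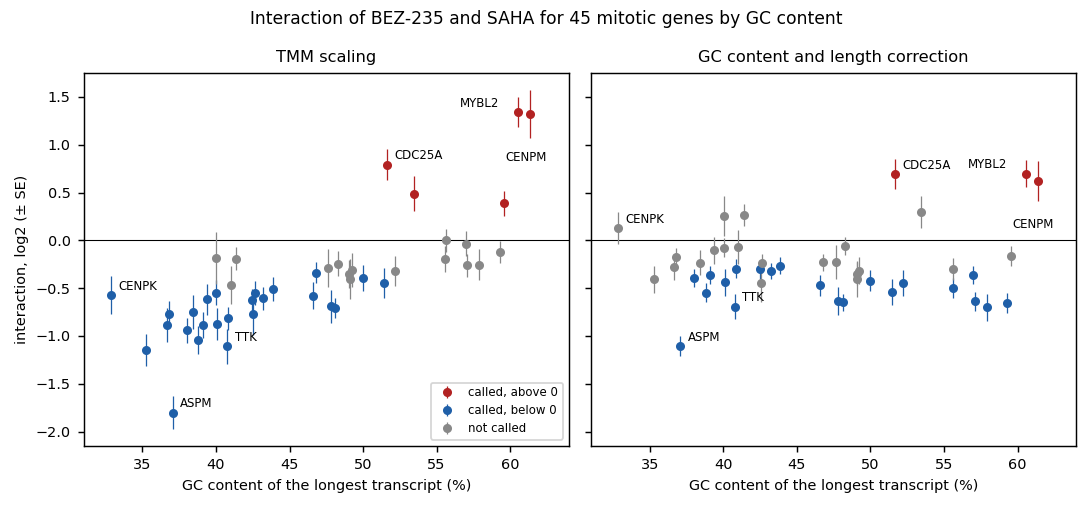
Interaction term (y axis, log2, point with ± SE) of the 45 genes against the GC content of the longest transcript (x axis, %), with TMM scaling (left) and after correction for GC content and length (right), coloured by the call in each fit. With TMM scaling the lowest value is -1.80 (ASPM) and the highest 1.34 (MYBL2), and after the correction ASPM remains lowest at -1.11.

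The pattern was set beside 106 other mitotic genes in 7 lists, of which 104 were tested. With BEZ-235, 82 of them fell and 2 rose, in a comparison in which 25.4% of all tested genes were called lower. In either direction 9051 of the 17774 tested genes were called. After the GC content and length correction 84 of the 104 were lower and 2 higher, against 27.3% of the tested genes called lower. All 11 mitotic kinesins and all 8 condensin subunits fell, among them KIFC1 (-2.22 ± 0.083), KIF20A (-1.74 ± 0.08), NCAPH (-2.42 ± 0.11) and NCAPG2 (-2.26 ± 0.081). Of the 29 tested other kinetochore and centromere genes 27 fell, with HJURP, the chaperone of CENP-A, at -2.10 ± 0.092 (adjusted p = 2.3e-11) and DSN1, of the MIS12 complex, at -2.04 ± 0.093 (adjusted p = 3.44e-11). In the list of mitotic cyclins, CDK1 and entry control 9 of 10 fell, with MASTL, the Greatwall kinase, at -2.31 ± 0.096 and CDK1 at -2.10 ± 0.093. Of the 18 tested centrosome and spindle assembly genes 15 fell, including TUBG1 (-1.91 ± 0.08) and SPAG5 (-1.71 ± 0.077). CLASP2 (0.44 ± 0.08, adjusted p = 0.000236) and NUMA1 (0.36 ± 0.088, adjusted p = 0.00236) rose. In the APC/C list, which holds its subunits, the coactivator FZR1, the ubiquitin-conjugating enzyme UBE2S and the inhibitor FBXO5, 8 of 17 fell, with a median of -0.21, among them UBE2S (-1.04 ± 0.14) and the subunit ANAPC15 (-0.93 ± 0.13). For the MuvB and DREAM subunits it was 4 of 11 with a median of -0.16, among them TFDP1 (-0.75 ± 0.072) and RBL1 (-0.72 ± 0.10). After the GC content and length correction 7 of these 11 were called lower, with a median of -0.20. In the APC/C list 7 of 17 were, with a median of -0.13.

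With SAHA, 21 of the 104 rose and 26 fell, in a comparison in which 22.2% of all tested genes were called higher and 20.9% lower, so these counts are near the background. After the GC content and length correction 19 were higher and 41 lower, against 21.7% and 29.6% of the tested genes. The kinesins rose in 8 of 11 cases with no gene lower, including KIF4A (0.48 ± 0.074, adjusted p = 8.02e-05) and KIF14 (0.55 ± 0.092, adjusted p = 0.000152). NEK2, a centrosome kinase, at 0.92 ± 0.098 (adjusted p = 1.64e-06), rose by more than any of the 45 genes. The kinetochore and centromere list split into 4 higher, with SGO2 at 0.38 ± 0.10 (adjusted p = 0.00641) and KNL1 at 0.46 ± 0.12 (adjusted p = 0.00756), and 8 lower, with PMF1 at -1.26 ± 0.10 (adjusted p = 9.02e-08) and MIS18A at -0.64 ± 0.13 (adjusted p = 0.00101), and after the correction it had 3 higher and 14 lower. The APC/C list had 7 lower and 0 higher, with ANAPC7 at -0.49 ± 0.08 (adjusted p = 0.000126) and ANAPC16 at -0.37 ± 0.083 (adjusted p = 0.00184). Among the MuvB and DREAM subunits, 5 were lower, including E2F4 (-0.59 ± 0.097, adjusted p = 0.000134) and LIN9 (-0.55 ± 0.11, adjusted p = 0.000833), and 2 were higher, RBL2 (0.29 ± 0.081, adjusted p = 0.00756) and LIN52 (0.34 ± 0.11, adjusted p = 0.0225). NCAPD2 (0.51 ± 0.07, adjusted p = 2.36e-05) was the only condensin subunit called. In the list of mitotic cyclins and entry control, CDK1 was higher (0.26 ± 0.087, adjusted p = 0.022) and PKMYT1, an inhibitory kinase of CDK1, lower (-0.41 ± 0.14, adjusted p = 0.0235). The centrosome list had 5 higher and 5 lower, and 4 and 10 after the correction, among the lower PLK4 (-0.52 ± 0.091, adjusted p = 0.000236) and NUMA1 (-0.33 ± 0.087, adjusted p = 0.00589) and among the higher CLASP2 (0.44 ± 0.08, adjusted p = 0.000329).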

How the data were processed

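Polyadenylated RNA of NB-1 cells was measured in 12 libraries, 3 in each of 4 groups taken from the treatment labels. The submitters' processing notes name STAR, RSEM and build hg38. Tool versions and the annotation were not given in the sources used here. Expected counts, left unscaled by the authors, were deposited and were rounded to whole counts. Names, coordinates, GC content and the longest transcript came from GENCODE release 29, in which 57447 of 58051 identifiers were found.

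All libraries were fitted in 1 model of 4 group means with 8 residual degrees of freedom, using edgeR 4.0.16 under R 4.3.3 (TMM factors 0.981 to 1.028, filterByExpr, robust quasi-likelihood test). At least 99.86% of every library lay in the 17774 genes left. The threshold for a call was a 2-sided p under 0.05 after Benjamini-Hochberg adjustment over all tested genes. Values after ± are SE for log2 fold changes. CPM use library sizes scaled with the TMM factors. The biological coefficient of variation was 10.6%. Labels say that replicates are biological without saying how they were separated. The GC content and length correction used offsets per library from natural splines with 5 degrees of freedom each, and the fits were tested on simulated data.

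Levels are given per library for FOXM1, MYBL2 and, in each role group, the genes with the highest and lowest BEZ-235 against SAHA value and the smallest interaction p. Other members are named as extremes or exceptions. Genes of the 7 other lists are the 2 with the smallest p per direction and list. The members and lists were chosen with earlier results of these data known. Alternatives were the GC content and length correction, each library left out, a block for the replicate number, the compared groups alone, unrounded values, a mean CPM of at least 1 or no filter, DESeq2 1.42.0 and relative log expression scaling. Promoter windows are those of RefSeq, build GRCh38.p14.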

Additional observations from a re-analysis of the deposited data

Results flagged for a closer look

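In 30 of the 45 genes the SAHA effect differed with and without BEZ-235 by the edgeR interaction test, where 38.4% of all tested genes were called, and the values that follow are the log2 change SAHA made on top of BEZ-235, less the one it made alone. The transcription factor MYBL2 (1.34), the phosphatase CDC25A (0.79), the passenger scaffold INCENP (0.39), the inner kinetochore gene CENPM (1.32) and the NDC80 complex gene SPC24 (0.49) were above 0. Of the kinases, AURKA (-0.58), TTK (-1.11) and BUB1 (-0.63) were below 0, as were the passenger complex gene CDCA8 (-0.44), the checkpoint genes BUB1B (-0.61) and MAD2L1 (-0.62) and the APC/C partner UBE2C (-0.39). In the centromere and inner kinetochore, CENPA (-0.69), CENPH (-0.77) and CENPK (-0.57) were below 0, and in the outer kinetochore CENPE (-1.15), CENPF (-0.81), NDC80 (-0.88) and NUF2 (-1.04). The spindle proteins below 0 were TPX2 (-0.34), NUSAP1 (-0.55), HMMR (-0.89), ASPM (-1.80), DLGAP5 (-0.75) and CKAP2 (-0.77). The midzone and cytokinesis genes PRC1 (-0.71), ECT2 (-0.94), ANLN (-0.55) and RACGAP1 (-0.51) and TOP2A (-0.88) completed them.

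The libraries with both drugs, which enter this term, differ from the others in GC dependence, and the term is plotted by GC content above. No correlation of the interaction term with GC content was computed. With the correction for GC content and length 18 of the 30 kept a call in the same direction, 15 below 0 and 3 above 0. The calls of CDCA8, UBE2C, CENPK, TPX2, INCENP and SPC24 were each lost when single libraries were left out. For CDCA8 these were DMSO replicate 2, DMSO replicate 3, BEZ-235 replicate 1, BEZ-235 replicate 2, SAHA replicate 2, SAHA replicate 3, BEZ-235 + SAHA replicate 1 or BEZ-235 + SAHA replicate 2, and for UBE2C DMSO replicate 3, BEZ-235 replicate 2, BEZ-235 replicate 3, SAHA replicate 2, SAHA replicate 3, BEZ-235 + SAHA replicate 1 or BEZ-235 + SAHA replicate 2. For CENPK they were DMSO replicate 1, DMSO replicate 2, BEZ-235 replicate 3, SAHA replicate 2, SAHA replicate 3 or BEZ-235 + SAHA replicate 3, and for TPX2 BEZ-235 replicate 1, BEZ-235 replicate 3, SAHA replicate 2 or BEZ-235 + SAHA replicate 2.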

How the results depend on the processing

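The falls with BEZ-235 against DMSO and against SAHA were called in all 45 genes under every alternative and with each library left out, and those with both drugs against DMSO and against SAHA in all 45 except BUB3 after GC content and length correction. Of the 28 SAHA calls 20 held with every library left out and 22 under every other alternative. For both drugs against BEZ-235 it was 21 and 15 of 24, and for the interaction 24 and 11 of 30.

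A result is said to have turned where a value called in either fit changed sign. This happened under the GC content and length correction, without and with the replicate block, which give these 2 log2 values in that order: for both drugs against BEZ-235 FOXM1 -0.21 and -0.21, AURKB -0.30 and -0.30, CENPE 0.064 and 0.056, HMMR 0.27 and 0.27, DLGAP5 0.32 and 0.31, CKAP2 0.043 and 0.042, ANLN 0.29 and 0.28, and TOP2A 0.18 and 0.18, and for the interaction INCENP -0.16 and -0.17, and CENPK 0.13 and 0.13. The correction alone and with the block also moved the medians of the members to -1.91 and -1.91 for both drugs against DMSO, -0.070 and -0.070 against BEZ-235, -2.06 and -2.07 against SAHA, and -0.32 and -0.31 for the interaction. Members called higher became 8 and 8 for both drugs against BEZ-235. For the interaction they became 3 and 2, and 3 with no filter on low counts, and all genes called became 3485 and 3045, against 6834. By construction the correction removes the GC dependence of each library, and what causes that dependence was not tested.

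With each library left out, the median for BEZ-235 against SAHA ran from -2.08 to -1.90, the interaction median from -0.58 to -0.43 and the interaction members above 0 from 3 to 5. No label pairs the samples by replicate number, and correlations of deviations from group means showed no pairing. Same-numbered libraries correlated at -0.16 to 0.13 over 18 pairs and others at -0.14 to 0.16. Such correlations need not show a trait that runs in different directions between groups. The share of variance that GC content and length accounted for rose with the replicate number in every group. From replicate 1 to 3 it went from 0.015 to 0.064 with DMSO and 0.0091 to 0.118 with BEZ-235. With SAHA it went from 0.047 to 0.11, and with both drugs from 0.112 to 0.314. What the number marks was not tested. With the replicate block alone the members called with SAHA were 20 higher and 5 lower, those with both drugs against BEZ-235 5 and 17, and the interaction 4 and 23. A left-out library leaves a group of 2, which is assumed to vary like the others. DESeq2 gave 22 higher and 6 lower with SAHA. Depth limits genes of few counts such as CENPM and CENPK most, and counts cannot tell cell number from RNA per cell.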
